A study of Mus musculus with 5 samples.

Results

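The oxidative phosphorylation genes described here are nuclear genes for the respiratory chain and the ATP synthase of mitochondria. They were chosen by name: every gene whose symbol starts with Nduf, Uqcr or Atp5, the genes Sdha, Sdhb, Sdhc, Sdhd and Cycs, and every gene whose symbol starts with Cox4, Cox5, Cox6, Cox7 or Cox8. This gave 91 genes of the 18194 that the array measured with a probe set of 1 gene symbol. They comprise 44 genes of complex I, 4 of complex II, 8 of complex III, the gene for cytochrome c, 17 of complex IV and 17 of complex V. The complex was assigned by symbol, so Ndufa4, now known as a subunit of complex IV, and its paralog Ndufa4l2 are counted with complex I. Each gene was read from the probe set with the highest mean log2 intensity.

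The study measured ovarian granulosa cells of mice on Affymetrix expression arrays, with 1 array for each of 5 groups. The knockout (KO) was built to lack the transcription factors C/EBPα and C/EBPβ in these cells: both genes were floxed, written CEBPα/β fl/fl fl/fl in the labels, and the transgene Cyp19-cre deletes them under a promoter that is active in granulosa cells. KO cells were collected at 4, 8 and 24 h after human chorionic gonadotropin (hCG), the hormone given in place of the ovulatory surge of luteinizing hormone. Wild type (WT) cells were collected at 8 and 24 h after hCG. All groups had first received equine chorionic gonadotropin (eCG) for 48 h, and the age of the mice was 23 days at the earlier times and 24 days at 24 h. The labels do not say whether the WT mice carried floxed alleles or the transgene, or how many animals gave the RNA of an array.

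Oxidative phosphorylation joins electron transport to ATP synthesis at the inner mitochondrial membrane. Complex I takes electrons from NADH and complex II from succinate, complex III passes them to cytochrome c, and complex IV passes them to oxygen. Complexes I, III and IV pump protons, and complex V, the ATP synthase, uses the proton gradient to make ATP. Granulosa cells that turn into luteal cells after the ovulatory hormone surge make progesterone, and its first step, cleavage of the cholesterol side chain, takes place in mitochondria.

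With 1 array per group, no comparison of single arrays has a replicate, so none carries a test or an error. A size rule was used in its place. A gene was counted at a difference of 2-fold or more, which is 1 on the log2 scale, provided that the higher intensity reached a floor of 22, the 40th percentile of all values. A second count used 1.5-fold. Of the 91 genes, 88 reached the floor in each comparison of the 8 h and 24 h arrays. Ndufb4, Cox7b2 and Cox8b lay under it on all 4 of these arrays. The only measure of technical spread is the agreement of different probe sets for the same gene. Over the 50 genes with at least 2 probe sets above the floor, its standard deviation per probe set was 0.16 on the log2 scale for the KO minus WT difference at 8 h and 0.17 for that at 24 h. Of the further probe sets of these genes, 57 of 83 had the same direction as the one used at 8 h, and 59 of 82 at 24 h.

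The arrays can be checked against their labels. Cebpa had an intensity of 19 in KO against 685 in WT cells at 8 h, and 38 in KO against 352 in WT cells at 24 h. Cebpb read 1127 in KO against 7436 in WT cells at 8 h, and 85 in KO against 3976 in WT cells at 24 h. Of the 11 granulosa cell markers chosen, 10 were measured and none lay under the floor on any array. Their summed intensity was 41613 in KO and 39849 in WT cells at 8 h, and 53416 in KO and 48060 in WT cells at 24 h. Markers of endothelium and stroma moved with the genotype. At 8 h, 11 of 12 endothelial markers and 13 of 14 markers of stroma and smooth muscle were at least 2-fold lower in KO cells. The summed endothelial intensity was 694 in KO and 2262 in WT cells at 8 h, and 739 in KO and 1461 in WT cells at 24 h. Pecam1, Tek and Tie1 lay under the floor in KO cells at 8 h. The summed stromal intensity was 6388 in KO and 28518 in WT cells at 8 h, and 12763 in KO and 19097 in WT cells at 24 h. At 8 h the sums of theca, oocyte and leukocyte markers were also lower in KO cells, and that of surface epithelium was higher. All 5 theca markers measured lay below WT at 8 h, with a median log2 difference of -1.47. Of these, Cyp17a1, Fbln5 and Tcf21 were at least 2-fold lower, while Ptch1 was nearly flat, at 886 in KO and 904 in WT cells. At 8 h the KO and WT sums were 1368 and 2616 for theca, and 4293 and 4925 for oocyte markers. For surface epithelium they were 2468 and 1523, and for leukocyte markers 1100 and 1659. At 24 h the KO and WT sums were 1609 and 1438 for theca, and 4175 and 3750 for oocyte markers. For surface epithelium they were then 2359 and 2242, and for leukocyte markers 1587 and 2405. The summed intensity of 7 luteal markers was 29271 in KO and 42875 in WT cells at 8 h, and 34326 in KO and 61268 in WT cells at 24 h. The part of these differences in the results below was not tested. In bulk RNA, fewer cells of a type and less RNA per cell cannot be told apart.

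Most of the genes were bright on the arrays. On the 4 arrays of 8 h and 24 h, 66 to 70 of the 91 genes ranked at or above the 90th percentile of all genes, a rank that reads probe brightness and not the number of transcripts. Several second isoforms of complex IV subunits were near the floor. Cox4i2, known as the lung isoform of subunit IV, had an intensity of 25 in KO and 20 in WT cells at 8 h, and of 30 in both at 24 h. Cox8b, a heart and muscle isoform, read 19 in KO and 21 in WT cells at 8 h, and 15 in KO and 18 in WT cells at 24 h. Cox7b2, known from testis, read 7 to 10 on these arrays. Cox4i1, Cox6a1 and Cox7a2, isoforms used in most tissues, read between 6321 and 17340. Not all ubiquitous subunits were as bright on the probe sets used: Cox8a read 2458 to 2840 and Cox7c 153 to 249.

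The first comparison asks how the genes differed between KO and WT cells at 8 h after hCG. Most were slightly lower in KO cells. Of 88 genes, 72 lay below WT, or 81.8%, against 50.7% of all 12924 genes above the floor. The median log2 difference was -0.11, against -0.01 for all genes and -0.02 for the 1736 genes of a mean intensity of 1000 or more. None was 2-fold lower or 2-fold higher, where 4.05% of all genes were 2-fold lower and 1.58% were 2-fold higher. With each array centred on its own median, the share below WT was 68.2%, against 42.0% of all genes.

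By complex, the medians at 8 h were -0.14 for complex I, -0.09 for complex II, -0.14 for complex III, -0.08 for complex IV and -0.10 for complex V, and they stayed below 0 under median centring and quantile normalization. All 6 core subunits of complex I in the set lay below WT on the probe sets used, by 0.13 to 0.20 on the log2 scale. Most of these subunits carry its flavin or its iron-sulfur centres. For Ndufv2, a further probe set read 1176 in KO and 1137 in WT cells, and another 1448 in KO and 1535 in WT cells. The 5 F1 subunits of complex V, which form its catalytic head and rotor shaft, were also all below WT, from -0.27 for Atp5e to -0.10 for Atp5d. The shift was seen in genes outside the set as well. The proteins of the mitochondrial ribosome had a median of -0.15, with 62 of 73 below WT, and those of the cytosolic ribosome a median of -0.12, with 41 of 45 below. A difference between the oxidative phosphorylation genes and these lists was not tested.

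The widest differences at 8 h stood in single probe sets. Cox6b2, known as a testis isoform of subunit VIb, had an intensity of 101 in KO against 164 in WT cells. Its log2 difference of -0.70 was the only one past 1.5-fold, where 8.39% of all genes were 1.5-fold lower and 4.83% 1.5-fold higher. At 24 h Cox6b2 read 142 in KO and 154 in WT cells, so the arrays of the genotypes were closer at the later time. Ndufa12, an accessory subunit of complex I, stood highest of the set at +0.42, with 3024 in KO and 2257 in WT cells. A second probe set read 1485 in KO and 2285 in WT cells, and another read 2264 in KO and 2928 in WT cells, so the direction for Ndufa12 depends on the probe set. Ndufb1, another accessory subunit, read 181 in KO and 136 in WT cells at 8 h, and 126 in KO and 117 in WT cells at 24 h. Lower members at 8 h included the assembly factor Ndufaf2, with 212 in KO and 274 in WT cells. Sdhc, a membrane anchor of complex II, read 696 in KO and 860 in WT cells.

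The second comparison is that of KO with WT cells at 24 h. In the deposited values the median of the set lay close to WT, and some genes lay farther below. The median log2 difference was -0.04, against +0.05 for all 13052 genes above the floor. Of 88 genes, 53 lay below and 33 above WT, and Cox4i2 and Cox6a2 read the same in both. The share below was 60.2%, against 43.7% of all genes, and with median centring it was 73.9%, against 49.6%. Median centring gave a member median of -0.08 at 24 h, against +0.004 for all genes, and of -0.05 at 8 h, against +0.06. Quantile normalization gave -0.02 at 24 h, against +0.03 for all genes, and -0.11 at 8 h, against +0.03. The contrast between 8 h and 24 h thus depends on the scaling. At the 2-fold rule, 1 gene was lower and none was higher, where 3.92% of all genes were lower and 3.13% higher. At 1.5-fold, 8 genes were lower and 1 was higher, where 10.3% of all genes were lower and 11.6% higher. The share of members past 1.5-fold downward was thus near the background.

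**Figure D1:**
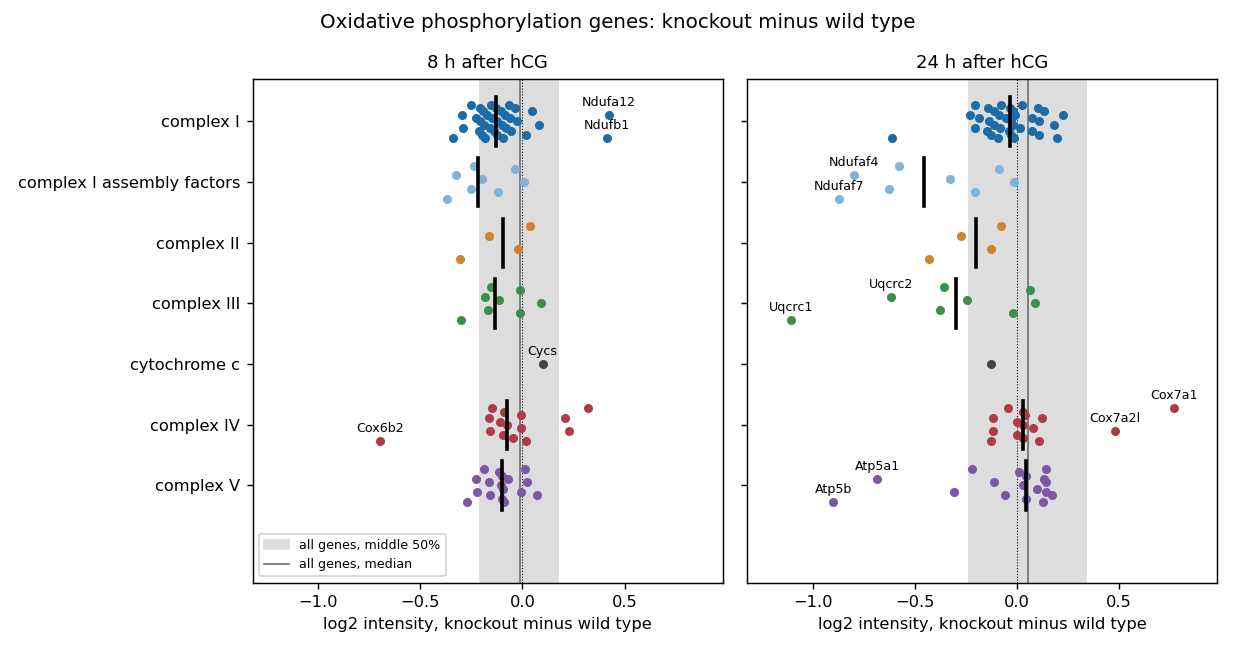
Log2 intensity in KO minus WT cells (horizontal axis) for the 88 genes above the floor, by complex, at 8 h (left) and 24 h (right) after hCG. Each point is a gene from 1 array per group, black bars are medians, and the grey band and line give the middle 50% and the median of all genes. At 8 h the medians of complexes II to V lie between -0.14 and -0.08. At 24 h the complex I assembly factors have a median of -0.45, and Uqcrc1, Atp5b and Ndufaf7 lie farthest to the left of the labelled genes.

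Complex III held the gene with the widest difference at 24 h. Uqcrc1, a core protein of complex III that faces the mitochondrial matrix, had an intensity of 1314 in KO against 2832 in WT cells at 24 h, and of 2531 in KO against 2818 in WT cells at 8 h. The KO array at 24 h thus stood apart from the other 3. The log2 difference was -1.11 at 24 h and -0.15 at 8 h, from the only probe set for this gene. Its partner core protein Uqcrc2 read 1488 in KO against 2284 in WT cells at 24 h, and 2002 in KO against 2017 in WT cells at 8 h. A second probe set for Uqcrc2 did not show the difference, with 1970 in KO and 2020 in WT cells at 24 h. Uqcrfs1, the Rieske iron-sulfur protein that passes electrons to cytochrome c1, was nearly flat, at 1966 in KO and 1994 in WT cells at 24 h. Among the 5 small subunits, the log2 differences at 24 h were -0.36 for Uqcr10, -0.38 for Uqcrq and -0.24 for Uqcr11, and 0.07 for Uqcrb and 0.09 for Uqcrh. The 2 further probe sets of Uqcr10 were also lower in KO cells at 24 h.

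Complex V held the gene with the next widest difference at 24 h. Atp5b, the catalytic beta subunit, had an intensity of 4489 in KO against 8370 in WT cells at 24 h, and of 6063 in KO against 7108 in WT cells at 8 h. KO cells were lower at both times, with log2 differences of -0.90 at 24 h and -0.23 at 8 h, from its only probe set. Atp5a1, the alpha subunit, had 3854 in KO against 6195 in WT cells at 24 h, and 4458 in KO against 5197 in WT cells at 8 h. A second bright probe set for Atp5a1 read 3790 in KO and 3696 in WT cells at 24 h, so the difference for this gene rests on 1 probe set. The other F1 subunits, gamma (Atp5c1), delta (Atp5d) and epsilon (Atp5e), were above WT at 24 h by 0.10 to 0.14 on the log2 scale. The genes Atp5g1, Atp5g2 and Atp5g3 code for the same c subunit of the rotor ring and differed by -0.31, +0.17 and -0.22 at 24 h. The brightest of them, Atp5g3, read 8462 in KO and 9852 in WT cells. None of the 9 genes of the peripheral stalk and the membrane part differed by more than 0.14. The median of complex V at 24 h was +0.04, and it turned just below 0 with median centring, where 10 of its 17 genes lay below WT.

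In complex I at 24 h, the 34 subunit genes above the floor, with Ndufa4 but without Ndufa4l2, had a median of -0.03 and lay between -0.23 and +0.22. The highest of them was Ndufv1, the core subunit that binds NADH, with 1765 in KO and 1511 in WT cells. A second probe set for Ndufv1 read 1413 in KO and 1257 in WT cells, but another read 893 in KO against 1355 in WT cells, a log2 difference of -0.60, so its direction depends on the probe set. The 8 assembly factors, which help to build complex I and do not stay in it, were all below WT, with a median of -0.45, and all 8 remained below WT under median centring and quantile normalization. Ndufaf7, known in human cells as a methyltransferase for a core subunit, had 180 in KO against 329 in WT cells. Ndufaf4 had 503 in KO against 875 in WT cells, and on its second probe set 158 in KO against 365 in WT cells. Ndufaf2 had 258 in KO against 398 in WT cells. At 8 h, 7 of the 8 were below WT as well, with a median of -0.22 and a range from -0.37 to +0.01. Ndufaf3 and Ndufaf8 differed by -0.01 and -0.09 at 24 h, and with Ndufaf5, at -0.20, they lay within the range of the subunits, so the size was not shared by all 8. The difference between the assembly factors and the subunits was not tested. Ndufa4l2, a paralog of Ndufa4 known to be induced in low oxygen, was dim, at 68 in KO and 104 in WT cells at 24 h.

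In complex II, which also belongs to the citric acid cycle, the median at 24 h was -0.20 and all 4 genes lay below WT on the probe sets used. Sdhb, the iron-sulfur subunit, had 2656 in KO against 3578 in WT cells. Sdha, the flavoprotein subunit, had 1935 in KO and 2039 in WT cells, but its second bright probe set had 1678 in KO and 1491 in WT cells, so the direction for Sdha depends on the probe set. The log2 differences of the membrane anchors were -0.27 for Sdhc and -0.13 for Sdhd, so Sdhb stood lowest of the 4. The electron carrier gene Cycs read 4444 in KO and 4857 in WT cells at 24 h, and 6914 in KO and 6455 in WT cells at 8 h. Its other 2 bright probe sets had the same directions at both times.

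Complex IV held the 2 members farthest above WT at 24 h. Its 9 ubiquitous subunits lay between -0.13 and +0.13, and 7 of them were above WT as deposited and with quantile normalization but 3 with median centring. Cox4i1, the largest nuclear-encoded subunit, had 8630 in KO and 8014 in WT cells, and Cox5a had 5627 in KO and 6139 in WT cells. Cox7a2l, also known as the supercomplex assembly factor SCAF1, had 1977 in KO against 1417 in WT cells at 24 h. Its 2 further probe sets read 1135 in KO against 784 in WT cells and 1828 in KO against 1272 in WT cells, so all 3 had the same direction. At 8 h the gene read 1134 in KO and 1258 in WT cells, so its direction differed between the times. Cox7a1, a heart and muscle isoform, was dim, with 92 in KO against 54 in WT cells at 24 h, and 37 in KO against 32 in WT cells at 8 h. Its log2 difference of +0.77 at 24 h was the only one past 1.5-fold upward.

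**Figure D2:**
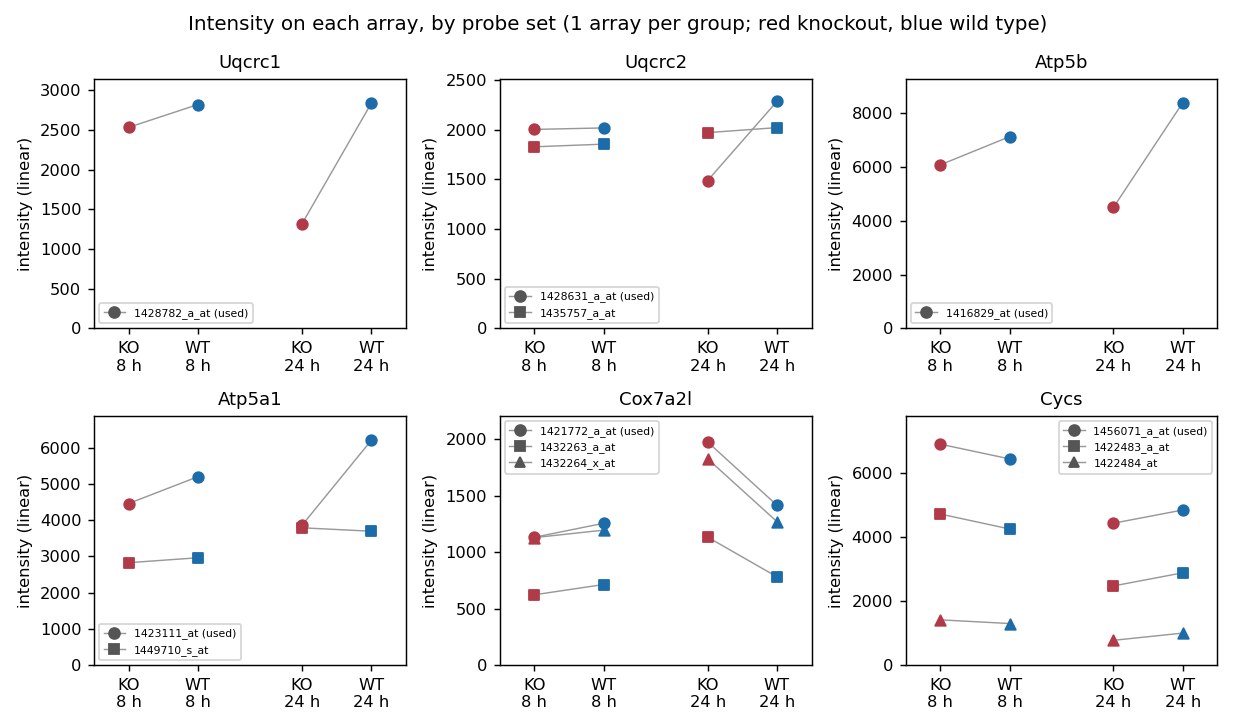
Deposited intensity (vertical axis, linear, starting at 0) on the KO and WT arrays at 8 h and 24 h for 6 genes, with a marker shape for each probe set that reached an intensity of 200. Grey lines join KO (red) and WT (blue) at the same time, each from 1 array. Uqcrc1 reads 1314 on the KO array at 24 h and 2531 to 2832 on the other 3, the probe sets of Uqcrc2 and Atp5a1 disagree at 24 h, and those of Cox7a2l and Cycs run together.

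Taking both times together, 17 of 88 genes were lower on both KO arrays than on both WT arrays, or 19.3%, against 14.2% of all 13316 genes. Only Atp5j and Uqcrb, or 2.27%, were higher on both KO arrays, against 16.4% of all genes. The 17 genes included both core proteins of complex III with Uqcr10 and Uqcrq, Sdhb and Sdhc, Atp5a1, Atp5b and Atp5g1, and the assembly factors Ndufaf1, Ndufaf2 and Ndufaf4. A limma fit with genotype and time as terms was the only test that these 4 arrays allow. It has 1 residual degree of freedom, which is the interaction and not replicate error. After Benjamini-Hochberg adjustment over 13316 genes, the limma fit called 0 members and 0 genes for genotype, while 1505 genes, or 11.3%, had an unadjusted p under 0.05. The time term of the same limma fit called 321 genes, or 2.41%, and 0 members. Among the genes with an unadjusted p under 0.05 for genotype were 3 members: Atp5b at -0.56 ± 0.20, Ndufaf2 at -0.50 ± 0.18 and Atp5a1 at -0.45 ± 0.16 (log2 ± SE over 4 arrays), each with a limma adjusted p of 0.44. Each was lower in KO cells at both times.

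The control regions of Uqcrc1 and Atp5b, the bright members farthest below WT at 24 h, are shown because the factors deleted in these cells bind DNA. They are RefSeq windows of GRCm38.p6, from 250 bases before to 50 bases after the start of transcription. The Uqcrc1 window lies at chr9:108936398-108936697 on the plus strand. Its capitals mark the matches to the motif of nuclear respiratory factor 1 (NRF1), GCGCTTGCGC at position 6 and GCGCATGCGC at position 31, each given by its first base as counted from the start of transcription, with negative positions before it. The Atp5b window lies at chr10:128083057-128083356 on the plus strand. Its capitals mark the CCAAT box, CCAAT or its reverse complement ATTGG, at positions -222, -188, -164, -147 and -75. The CCAAT box was searched as a motif separate from the letters used for a C/EBP site, which are given below the windows.
Uqcrc1: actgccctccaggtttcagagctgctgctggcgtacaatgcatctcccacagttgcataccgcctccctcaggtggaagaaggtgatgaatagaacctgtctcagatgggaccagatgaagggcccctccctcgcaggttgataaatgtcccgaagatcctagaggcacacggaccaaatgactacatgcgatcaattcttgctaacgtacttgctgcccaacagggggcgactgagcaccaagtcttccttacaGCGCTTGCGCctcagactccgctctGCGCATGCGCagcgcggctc
Atp5b: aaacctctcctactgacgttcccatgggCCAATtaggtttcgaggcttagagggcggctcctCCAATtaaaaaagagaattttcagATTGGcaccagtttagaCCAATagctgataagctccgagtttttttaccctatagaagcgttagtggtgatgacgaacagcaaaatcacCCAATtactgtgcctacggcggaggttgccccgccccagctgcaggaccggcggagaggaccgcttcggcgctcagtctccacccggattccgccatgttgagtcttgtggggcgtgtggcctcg
The letters TTGCNNAA and ATTGCNNAA, used here for a C/EBP site, were searched on both strands with the other motifs, and any ATTGCNNAA also holds TTGCNNAA. Windows for 75 of the 91 genes were found, 80 in all, and set beside all 32851 windows of the table. TTGCNNAA was in 12.5% of the members' windows, against 10.8% of all, and ATTGCNNAA in 0 of 80, against 2.2%. Neither occurred in the windows of Uqcrc1 and Atp5b. The NRF1 motif was in 22.5% of the members' windows against 4.6% of all. CCGGAAG, an ETS motif, was in 23.8% against 8.9%, AAGATGG, a YY1 motif, in 13.8% against 6.3%, and the CCAAT box in 42.5% against 37.4%. A match describes letters in a window and was not tied to the intensities.

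The next comparisons are those of 24 h with 8 h after hCG within a genotype. In both genotypes most of the genes were higher at 24 h. In KO cells, 71 of 88 genes were higher at 24 h, with a median log2 difference of +0.25, against 56% and +0.07 for all 12999 genes. In WT cells, 74 of 88 were higher, with a median of +0.21, against 49.7% and 0.00 for all 13054 genes. Age goes with time here, and the 2 cannot be told apart. The 2-fold rule was passed upward by 2 genes in KO and 1 in WT cells, where 6.85% and 5.55% of all genes were 2-fold higher. Downward, no member passed it in either genotype, where 5.26% of all genes in KO and 6.45% in WT cells were 2-fold lower. At 1.5-fold, 13 genes were higher and 2 lower in KO cells, where 16.6% of all genes were higher and 11.4% lower. In WT cells 9 were higher and none lower, where 13.7% of all genes were higher and 14.1% lower. The shift was thus small and broad, with a share past 1.5-fold upward near the background. Lists outside the set were mostly higher at 24 h in WT cells as well. This held for 31 of 37 other assembly factors, with a median of +0.37, and 16 of 18 mitochondrial import genes, with +0.235. For proteins of the mitochondrial ribosome it held for 45 of 73, with +0.115, and for those of the cytosolic ribosome 35 of 45, with +0.09. A difference between these lists and the set was not tested.

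By median, the shift with time was widest in complex I. For KO cells the median of the 24 h minus 8 h difference was +0.40 in complex I, +0.10 in complex II, +0.03 in complex III, +0.23 in complex IV and +0.13 in complex V, and with median centring that of complex III turned to -0.04. For WT cells it was +0.33, +0.21, +0.11, +0.17 and +0.11 in the same complexes. Complex I was not uniform. Its 8 assembly factors had a median of +0.34 in KO and +0.49 in WT cells. Its 6 core subunits had +0.32 in KO but +0.10 in WT cells, where 2 of the 6 were lower at 24 h. With median centring these medians were +0.25 in KO and +0.15 in WT cells. Of the 6, 1 was then lower at 24 h in KO and 0 in WT cells, so the size of this contrast depends on the scaling. Both 24 h arrays lay above both 8 h arrays for 55 of 88 genes, or 62.5%, against 29.1% of all genes. This held for 32 of 43 genes of complex I, 12 of 15 of complex IV, 8 of 17 of complex V, 2 of 8 of complex III and 1 of 4 of complex II. The reverse order was seen in 6 genes, or 6.82%, against 23.1% of all genes: Cycs, Ndufa2, Ndufb1, Ndufaf5, Atp5md and Atp5mpl. Markers of other cells also moved with time. The summed stromal intensity in KO cells was 12763 at 24 h against 6388 at 8 h, and in WT cells 19097 at 24 h against 28518 at 8 h. The granulosa sum was 53416 at 24 h against 41613 at 8 h in KO cells, and 48060 at 24 h against 39849 at 8 h in WT cells. The luteal sum was 34326 at 24 h against 29271 at 8 h in KO cells, and 61268 at 24 h against 42875 at 8 h in WT cells. The granulosa and luteal sums were thus higher at 24 h in both genotypes, as was that of 14 leukocyte markers, with 1587 at 24 h against 1100 at 8 h in KO cells and 2405 at 24 h against 1659 at 8 h in WT cells. Single markers went both ways. In WT cells, 6 of 10 granulosa and 5 of 7 luteal markers were higher at 24 h. Star read 327 at 24 h against 7421 at 8 h in KO cells, and 1259 against 9231 in WT cells. Parm1 was also lower at 24 h in both genotypes, and the other luteal markers were higher in both. The part of these markers in the shift with time was not tested.

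**Figure D3:**
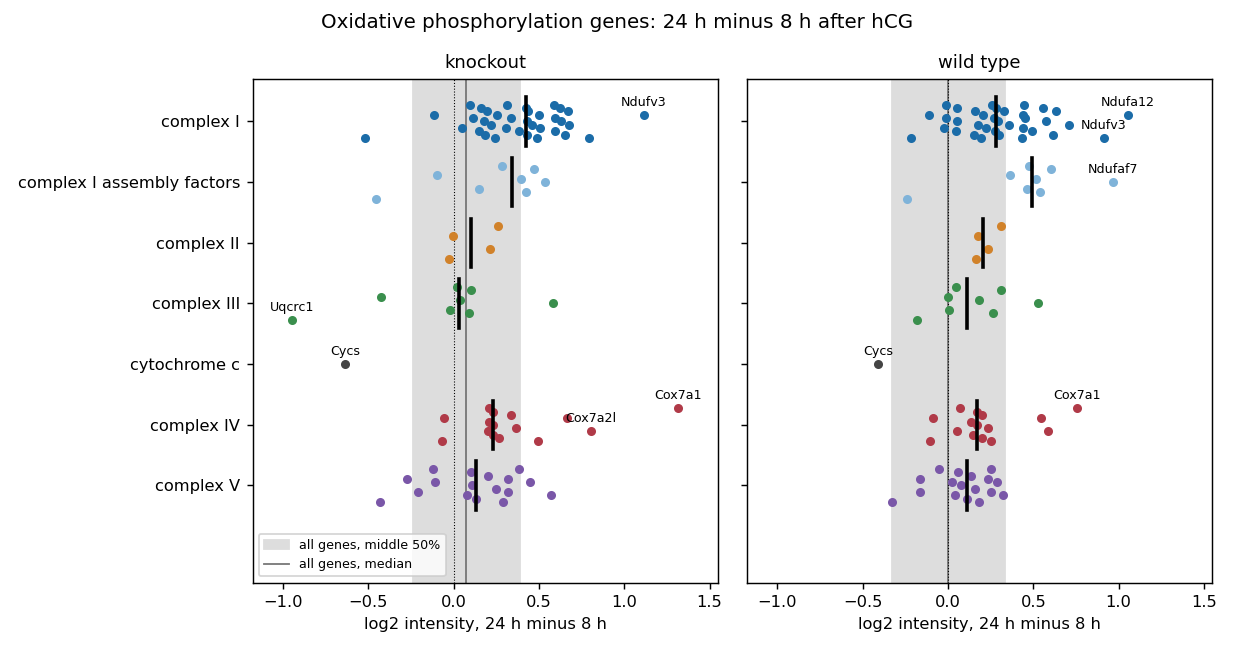
Log2 intensity at 24 h minus 8 h after hCG (horizontal axis) for the 88 genes above the floor, by complex, in KO (left) and WT cells (right). Each point is a gene from 1 array per group, black bars are medians, and the grey band and line give the middle 50% and the median of all genes. The complex I assembly factors are drawn apart from complex I and have a median of +0.34 in KO and +0.49 in WT cells. Cycs lies at -0.64 in KO and -0.41 in WT cells.

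Ndufv3, an accessory subunit of the NADH-oxidizing module of complex I, was higher at 24 h in both genotypes. In KO cells it had an intensity of 2151 at 24 h against 994 at 8 h, and in WT cells 2289 at 24 h against 1216 at 8 h. The log2 differences were +1.11 in KO and +0.91 in WT cells, from its only probe set. Ndufa7 had 3893 at 24 h against 2251 at 8 h in KO cells, and 4044 at 24 h against 2605 at 8 h in WT cells. All 5 of its probe sets were higher at 24 h in both genotypes. Ndufc2, a membrane subunit of complex I, had 6289 at 24 h against 3941 at 8 h in KO cells, and 7370 at 24 h against 4505 at 8 h in WT cells. The single member past 2-fold in WT cells was Ndufa12, at 4689 at 24 h against 2257 at 8 h, a log2 difference of +1.05. Its other 2 bright probe sets gave +0.30 and +0.40 in WT cells, a much smaller change. Cox7a1 was the second gene past 2-fold in KO cells, at 92 at 24 h against 37 at 8 h. Core subunits of complex I varied: Ndufs3 had 2507 at 24 h against 1671 at 8 h in KO cells, while Ndufv2 had 3091 at 24 h against 2896 at 8 h.

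Cycs went against the set. Cytochrome c carries electrons from complex III to complex IV and, once released from mitochondria, takes part in apoptosis. Its intensity was 4444 at 24 h against 6914 at 8 h in KO cells, and 4857 at 24 h against 6455 at 8 h in WT cells. The log2 differences were -0.64 in KO and -0.41 in WT cells. The other 2 bright probe sets gave -0.93 and -0.86 in KO cells and -0.56 and -0.37 in WT cells, so all 3 were lower at 24 h in both genotypes. The windows of Cycs, at chr6:50566520-50566819 on the minus strand, and of Ndufv3, at chr17:31519865-31520164 on the plus strand, are printed as a pair of members that ran in opposite directions with time. Capitals mark the CCAAT box or its reverse complement, at position -31 in Cycs and at -80 and 4 in Ndufv3, and neither window held the NRF1 motif, TTGCNNAA or CCGGAAG.
Cycs: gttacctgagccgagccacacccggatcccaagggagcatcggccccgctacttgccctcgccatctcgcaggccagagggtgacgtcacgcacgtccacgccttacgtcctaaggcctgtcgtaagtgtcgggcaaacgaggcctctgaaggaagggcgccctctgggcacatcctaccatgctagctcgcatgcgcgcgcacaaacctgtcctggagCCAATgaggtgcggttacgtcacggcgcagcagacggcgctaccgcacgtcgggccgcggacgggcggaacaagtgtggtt
Ndufv3: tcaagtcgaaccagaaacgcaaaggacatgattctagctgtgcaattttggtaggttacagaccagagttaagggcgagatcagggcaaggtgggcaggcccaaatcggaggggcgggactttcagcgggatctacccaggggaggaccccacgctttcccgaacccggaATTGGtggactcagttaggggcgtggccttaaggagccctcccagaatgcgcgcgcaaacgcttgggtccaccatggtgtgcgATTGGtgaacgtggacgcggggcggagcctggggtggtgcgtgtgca

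The time changes of the 2 genotypes can be set against each other, since they share no array. Over the 88 genes, the changes in KO and in WT cells had a Pearson correlation of 0.65 across genes, against 0.70 over 12737 genes of the array, and 64 members were higher at 24 h in both. This is a description across genes, which are not replicates. The difference between the changes, KO minus WT, had a median of +0.04, against +0.07 for all 13316 genes. No member passed 2-fold in it, where 3.09% of all genes were lower and 5.04% higher. At 1.5-fold, 3 members were lower and 1 was higher, where 8.62% of all genes were lower and 13.6% higher. Of the 88 members, 37 lay below 0, with 43.2% of all genes below it. With each array centred on its own median, the member median turned to -0.08 and that of all genes to -0.05, so the sign of this median depends on the scaling. Uqcrc1 changed by -0.95 in KO and +0.01 in WT cells, Atp5b by -0.43 in KO and +0.24 in WT cells, and Uqcrc2 by -0.43 in KO and +0.18 in WT cells. Cox7a2l ran the other way, with +0.80 in KO and +0.17 in WT cells. The 8 assembly factors of complex I had a median of -0.24, with 6 below 0 as deposited and all 8 with median centring. All 9 ubiquitous complex IV subunits lay above 0 in this difference as deposited, with a median of +0.12, but 5 of 9 did with median centring and 8 of 9 with quantile normalization.

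The other genes that serve oxidative phosphorylation were described by the same rule at 24 h. Among all genes at this time, 43.7% were below WT, 3.92% were 2-fold lower and 3.13% 2-fold higher, with a median of +0.05. Among 37 further assembly factors, 29 were below WT, with a median of -0.19, and 4 were 2-fold lower. These were Ecsit and Tmem126b, which act on complex I, Sco2, a copper chaperone of complex IV, and Tmem70, which acts on complex V. Sco2 had 254 in KO against 571 in WT cells, and Tmem70 had 416 in KO against 842 in WT cells. None of 16 regulators of mitochondrial biogenesis passed 2-fold. Their median was -0.19, and Tfam, a transcription factor for mitochondrial DNA, had 313 in KO against 620 in WT cells. Ppargc1a, a coactivator of biogenesis, read 10 in both and lay under the floor.

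Neighbouring pathways were set beside the same shares of all genes at 24 h, 43.7% below WT and 3.92% 2-fold lower. In the citric acid cycle, 11 of 14 genes were below WT, with a median of -0.22, and Idh3a was 2-fold lower, at 888 in KO against 1855 in WT cells. Of 11 genes for pyruvate entry, 9 were below WT, with a median of -0.26. Pdhx was 2-fold lower in that list, and Pdk4, an inhibitor of pyruvate dehydrogenase, was 2-fold higher, at 379 in KO against 126 in WT cells. Fatty acid oxidation had a median of +0.06, with Echs1 2-fold lower. Mitochondrial import had a median of -0.40, with Hspd1 and Tomm40 2-fold lower, and Tomm40, the channel of the outer membrane, read 278 in KO against 1063 in WT cells. Among 17 carrier and redox genes, the median was -0.24, and Prdx3 was 2-fold lower. That list holds Cyc1, the cytochrome c1 gene of complex III, which the choice of the set by name leaves out. It read 2819 in KO and 3457 in WT cells at 24 h. For 14 glycolytic genes the median was -0.49, and 5 were 2-fold lower: Hk2, Ldha, Pfkp, Pgam1 and Pgk1. Ldha had 1874 in KO against 5709 in WT cells. The 5 mitochondrial steroidogenic genes measured above the floor were all below WT, with a median of -0.58, and Star was 2-fold lower, at 327 in KO against 1259 in WT cells. None of these lists was tested against the oxidative phosphorylation genes.

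The KO array at 4 h has no WT partner here, and its scale differed from the others, with a median intensity of 54 against 31 or 32. It was set beside the KO array at 8 h only by rank and after quantile normalization of all 5 arrays. The genes then read higher at 8 h than at 4 h, with a median of +0.85 over 89 genes, against -0.08 for all 15198 genes, and 39 were 2-fold higher, where 13.4% of all genes were. Genes of a mean intensity of 1000 or more had a median of +0.27, with 440 of 1736 2-fold higher. The proteins of the mitochondrial ribosome had a median of +0.94, with 34 of 73 2-fold higher, so the shift was not particular to the set. By the same values 1 gene, Cox7c, was 2-fold lower at 8 h, where 13.3% of all genes were. Probe sets of the same gene did not go together in this comparison. In the deposited values, their standard deviation for the 8 h minus 4 h difference was 1.03 on the log2 scale, and 31 genes had probe sets at least 2-fold apart, against 1 gene for KO minus WT at 8 h and 0 at 24 h. Deposited intensities show the scatter. Ndufs5 read 186 at 4 h and 1012 at 8 h, and Uqcr10 read 264 at 4 h and 1648 at 8 h. Sdha read 4749 at 4 h and 1619 at 8 h, and Cox7a2l read 3855 at 4 h and 1134 at 8 h. For the 31 genes, the size of the difference between 4 h and 8 h depends on the probe set read.

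**Figure D4:**
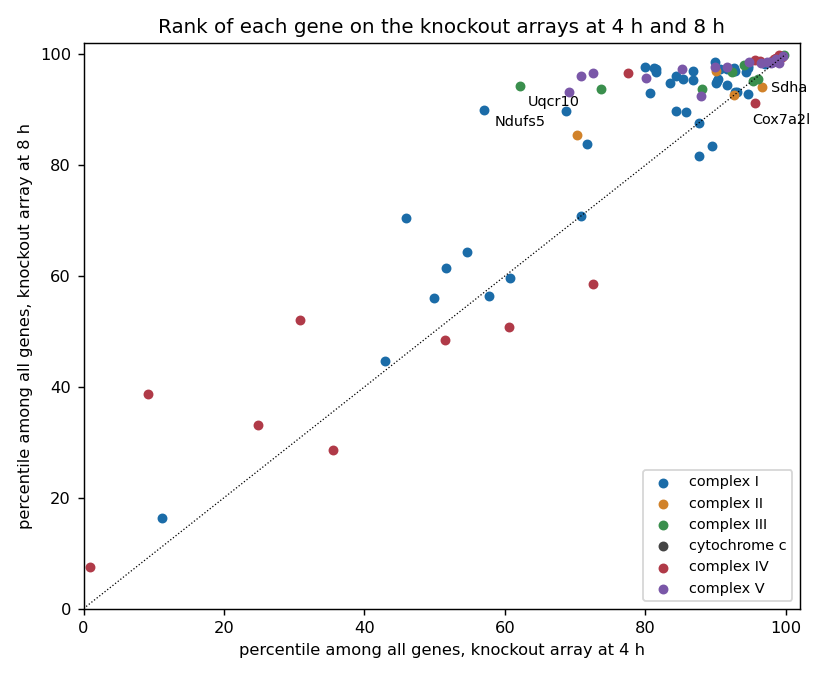
Percentile rank of each of the 91 genes among all genes on the KO array at 4 h (horizontal axis) and at 8 h after hCG (vertical axis), coloured by complex, with a dotted line of equal rank. Of the 91 genes, 43 rank at or above the 90th percentile at 4 h and 66 at 8 h, and genes such as Ndufs5 and Uqcr10 lie far above the line while Sdha and Cox7a2l lie below it.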

How the data were processed

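Granulosa cell RNA was measured on 5 arrays of 45101 probe sets, 1 per group, grouped by their titles. The authors' deposited values are whole-number intensities on a linear scale. Per the submitters' processing notes they were made with affy and RMA, with no version given, and RMA usually returns log2 values, so log2 was taken here before every difference. RNA was isolated with an RNeasy kit, per the labels' protocols. The KO array of 4 h had another scale than the other 4, and the sources used here do not say whether it was normalized with them. The number of arrays limits the precision.

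Gene symbols came from the platform annotation and were brought up to date by Entrez identifier with a RefSeq table, a step that changed no member's symbol. The annotation gave a single symbol to 34958 probe sets, several to 932 and none to 9211. Probe sets with several symbols were left out, 10 of them with a name of this gene family. The members had 183 probe sets, and 39 members had only 1. Values under the floor were not raised before a difference was taken.

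The members, lists and thresholds were chosen with earlier results of these data known. Named members are those past 2-fold, the 5 highest and 5 lowest in each comparison, core subunits, isoforms and assembly factors. The fit used limma 3.58.1 in R 4.3.3 on 4 arrays and was tested on simulated data, and other steps used Python 3.11.15 with pandas 2.3.3 and numpy 2.4.6. Alternatives were the mean of all probe sets, leaving out less specific probe sets, median centring, quantile normalization, no floor, a floor of 200, a 1.5-fold threshold, platform symbols, structural subunits only and, chosen after seeing the data, probe sets and floor set without the KO array at 4 h.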

Additional observations from a re-analysis of the deposited data

Results flagged for a closer look

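In 3 members the change between 8 h and 24 h ran in opposite directions in the genotypes, and the changes differed by at least 1.5-fold. The difference was not tested, since each group has 1 array. For Uqcrc1, the time change in KO minus that in WT cells was -0.953 on the log2 scale, with -0.95 in KO cells and +0.01, close to 0, in WT cells. For Atp5b it was -0.669, with -0.43 in KO and +0.24 in WT cells. For Uqcrc2 it was -0.607, with -0.43 in KO and +0.18 in WT cells, and the second Uqcrc2 probe set gave -0.02.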

How the results depend on the processing

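Under the alternatives tried, 924 single-member results stayed on the same side of the size threshold. A change of sign below the threshold was not counted for them. Another 188 summary results were counted as kept. For a median this meant no reversal of sign and a shift smaller than the standard deviation per probe set. For a count it meant the same number or one at most 1.5-fold apart. The other values follow. With the 1.5-fold threshold, members past it in KO against WT cells were 1 lower at 8 h, and 8 lower and 1 higher at 24 h. For 24 h against 8 h they were 2 lower and 13 higher in KO cells and 9 higher in WT cells, and for the difference of time changes 3 lower and 1 higher. With the mean of all probe sets, 2 members were lower in KO cells at 24 h, Uqcrc1 and Ndufaf4, and 0 were higher with time in WT cells. Without less specific probe sets that last count was also 0, because Ndufa12 then changed by 0.44, and with median centring or quantile normalization it was 2, with Ndufaf7 added. Median centring gave 1 member lower with time in KO cells, Uqcrc1, and in the difference of time changes it gave 1 lower, 57 of 88 members below 0 against 37, and a median of -0.076, reversed in sign. It moved the median of all genes there from +0.07 to -0.05, and the share of members below WT from 81.8% to 68.2% at 8 h and from 60.2% to 73.9% at 24 h. A floor of 200 left 1 member, Ndufv3, 2-fold higher with time in KO cells, since Cox7a1 is dimmer, and the limma fit then called 4 genes lower, none of them a member. The limma time term called 321 genes and 0 members as reported, and 174 to 963 genes and 0 to 3 members under the alternatives. No paired analysis was possible by replicate number, because each group has 1 array; the limma fit compares the genotypes within each time. Dim isoforms read near the floor, where values rounded to whole numbers give coarse log2 differences.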

Other observations

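The array also holds a probe set for ND5, a complex I subunit encoded by mitochondrial DNA. It read 6379 in KO against 7813 in WT cells at 8 h, and 7558 in KO against 9211 in WT cells at 24 h, a log2 difference of -0.29 at each time. Its 24 h minus 8 h difference was +0.25 in KO and +0.24 in WT cells, close to the medians of the nuclear genes. A probe set that names Ndufb4 with 2 of its copies read 1830 in KO and 2026 in WT cells at 24 h, and 988 in KO and 1246 in WT cells at 8 h. The single-symbol probe set for Ndufb4 lay under the floor on all 4 arrays.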
